A study of Mus musculus with 45 samples.

Results

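Forelimb buds of CD1 mouse embryos at gestation day 13 were exposed in organ culture for 3 h to 50 µM bisphenol S (BPS) or to its solvent, dimethyl sulfoxide (DMSO, called control here). The comparison was defined by its groups, with all genes taken, and it used 5 libraries of each group, 10 of the 45 libraries of the series. BPS is a bisphenol used as a substitute for bisphenol A, and the series title places the work in endochondral ossification, the replacement of a cartilage model by bone. Limbs were pooled in bottles of culture medium and male and female limbs shared a culture. The labels name no transgene or mutation, and all groups shared the same medium and solvent. The other groups used below for comparison were 10 µM BPS at 3 h and the control and 50 µM groups at 24 and 48 h. The labels do not say which libraries came from separate bottles or litters. The p-values therefore reflect the spread from library to library, part of which may be technical. Expression was read from poly-A RNA and is given as read counts scaled to library size (CPM), with changes on the log2 scale.

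Several pathways with known transcript responses are described below. Proteins that enter the endoplasmic reticulum (ER) are folded there by chaperones such as BiP, the product of Hspa5, and when unfolded proteins build up the unfolded protein response raises these chaperones through the transcription factors ATF6 and XBP1 and, on a separate arm, stress genes through ATF4 and CHOP. Cholesterol and fatty acid enzymes are controlled by the SREBP transcription factors, which are held in the ER membrane when sterols are plentiful. Retinoic acid induces genes of its own breakdown and reception. Bone morphogenetic proteins (BMPs) act through SMAD proteins, whose common targets include the Id genes, in limb bud mesenchyme and in the cartilage that forms from it.

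The promoters of 7 genes whose transcripts changed are shown here because each holds an exact match to the response element of its pathway. The 250 bases before the RefSeq start of each gene are printed 5′ to 3′ on the strand of the gene (GRCm38.p6, the mm10 assembly), with the matching bases in capitals. The first set holds the ER stress response element, searched on both strands as CCAAT and CCACG with 9 bases between them.
Hspa5: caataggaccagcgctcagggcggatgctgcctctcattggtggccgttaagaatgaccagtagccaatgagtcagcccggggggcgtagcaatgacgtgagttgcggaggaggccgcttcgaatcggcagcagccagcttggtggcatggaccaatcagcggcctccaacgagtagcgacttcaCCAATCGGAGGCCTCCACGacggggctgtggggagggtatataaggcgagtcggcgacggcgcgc
Hsp90b1: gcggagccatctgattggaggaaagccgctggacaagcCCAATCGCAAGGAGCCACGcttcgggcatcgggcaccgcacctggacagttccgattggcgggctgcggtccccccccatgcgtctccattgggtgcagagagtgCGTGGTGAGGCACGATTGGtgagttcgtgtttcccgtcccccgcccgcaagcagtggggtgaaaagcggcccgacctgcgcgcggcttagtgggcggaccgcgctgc
Calr: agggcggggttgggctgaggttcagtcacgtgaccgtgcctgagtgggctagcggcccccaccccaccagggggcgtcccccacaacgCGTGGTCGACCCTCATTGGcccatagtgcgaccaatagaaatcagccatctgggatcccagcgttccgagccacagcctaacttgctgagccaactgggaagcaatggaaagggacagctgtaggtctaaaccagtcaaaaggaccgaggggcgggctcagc
Pdia6: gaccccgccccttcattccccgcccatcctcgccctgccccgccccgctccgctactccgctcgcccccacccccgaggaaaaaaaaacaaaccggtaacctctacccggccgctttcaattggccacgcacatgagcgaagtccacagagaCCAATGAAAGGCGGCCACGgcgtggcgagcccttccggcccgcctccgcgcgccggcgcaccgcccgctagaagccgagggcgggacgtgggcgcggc
These windows lie at chr2:34771840-34772089 (plus strand), chr10:86705445-86705694 (minus), chr8:84846932-84847181 (minus) and chr12:17266339-17266588 (plus). The match began 65 bases before the start in Hspa5, 162 in Calr and 98 in Pdia6, and Hsp90b1 held 2 matches, at 212 and 107 bases. The element was present in 0.119% of all 32851 RefSeq mouse windows of 300 bases, which add 50 bases after the start.
The second set holds the retinoic acid response element of the DR5 type, a direct repeat, searched by that name on both strands.
Rarb: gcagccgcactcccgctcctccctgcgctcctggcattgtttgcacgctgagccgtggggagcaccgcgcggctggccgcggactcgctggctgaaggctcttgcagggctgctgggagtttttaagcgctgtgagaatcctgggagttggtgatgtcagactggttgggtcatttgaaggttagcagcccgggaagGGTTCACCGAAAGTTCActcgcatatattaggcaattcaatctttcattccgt
Cyp26a1: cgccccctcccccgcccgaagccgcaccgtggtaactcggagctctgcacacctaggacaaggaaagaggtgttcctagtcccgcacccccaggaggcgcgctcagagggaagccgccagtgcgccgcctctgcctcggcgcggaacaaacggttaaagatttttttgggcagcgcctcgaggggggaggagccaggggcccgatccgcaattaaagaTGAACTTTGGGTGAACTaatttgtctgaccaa
They lie at chr14:16575477-16575726 (minus strand) and chr19:37697558-37697807 (plus), with the match 53 and 32 bases before the start, and 0.0974% of all windows held the element. The last is Txnip with a carbohydrate response element, searched on both strands as 2 copies of CACGNG with 5 bases between them and found in 0.0487% of all windows.
Txnip: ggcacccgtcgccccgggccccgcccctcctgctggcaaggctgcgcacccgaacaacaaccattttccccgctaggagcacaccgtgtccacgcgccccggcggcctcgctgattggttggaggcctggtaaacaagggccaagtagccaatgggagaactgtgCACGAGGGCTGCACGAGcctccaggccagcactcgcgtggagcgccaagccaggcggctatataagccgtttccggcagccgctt
It lies at chr3:96557707-96557956 (plus strand), with the match 85 bases before the start. A match describes the sequence only, since factor binding was not measured.

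Depth ran from 15.41 to 22.9 M reads on genes. A level of 3 reads, used as the floor for a level of 0, lay between 0.131 and 0.195 CPM, and it covers counting error only because the reads carry no molecular identifiers. The forelimb marker Tbx5 stood between 286.5 and 335.4 CPM in the 10 libraries, while the hindlimb markers Tbx4, Pitx1 and Isl1 were low. Despite cultures of mixed sex, the 4 Y-linked genes examined summed to 0 CPM in 50 µM replicate 2 and control replicate 1. They summed to 86.8 CPM in 50 µM replicate 1, to 95.6 CPM in control replicate 4 and to 163 to 185 CPM in the other 6 libraries. For many of the gene lists the count without replicates 1 and 2 of both groups is given too. Those are the pairs that contained the libraries lacking Y-linked reads. Such a fit also has fewer libraries, and the part of this in a lost call was not tested.

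Libraries of the same replicate number deviated from their group means together. The correlation across genes was 0.114 to 0.243 in the 5 same-numbered pairs, with a median of -0.0478 among differently numbered pairs. One differently numbered pair had a higher value of 0.265, and it was the pair of libraries without Y-linked reads. Each gene was therefore tested without the replicate number and with it as a block, in which a treated library is compared with the control library of the same number.

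Without the block 9 of 16722 genes passed an adjusted p of 0.05 (edgeR quasi-likelihood test with Benjamini-Hochberg adjustment), which is 0.0538% of the genes tested. Of these 5 rose (0.0299%) and 4 fell (0.0239%). With the block 256 genes passed, 1.53% of those tested, and they included all 9. Of the 256, 134 rose (0.801%) and 122 fell (0.73%). Without both libraries lacking Y-linked reads, 2 genes passed, Zscan26 and Mettl17. With the block and without both pairs that contained those libraries 193 of 16794 genes passed. Of the 193, 86 rose and 107 fell, and 119 were among the 256. Single pairs also decided many calls: when each replicate number was left out of both groups in turn, 56 of the 256 genes passed in all 5 fits and 35 passed in 0 of them. The changes were small: the median size among the 256 genes was 0.20 on the log2 scale, 11 reached 0.5, and 1 gene, Vsig2, reached a change of 2-fold. Among these genes 246 moved the same way in 5 of 5 pairs, while 6.91% of all genes tested were higher and 6.26% lower in 5 of 5. The groups of 92 did not overlap, which was so for 1.71% of all genes tested. Both counts follow largely from the selection, since the test with the block compares these same pairs.

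The 9 genes that passed in both fits lie at separate loci, given as the deposited table places them on mm10. Those that rose were Hspa5 (chr2:34771970-34777547), Xbp1 (chr11:5520659-5525893), Gdf5 (chr2:155941023-155945367), Ypel1 (chr16:17069696-17087045) and Gm13111 (chr4:154637576-154644724). Those that fell were Zscan26 (chr13:21442180-21453730), Mettl17 (chr14:51884842-51893039), Arrdc4 (chr7:68736995-68749241) and Rbm25 (chr12:83631236-83683123). Of these, 4 share part of their annotated span with another tested gene, and since strand use is unknown their counts are less certain. Gdf5 shares 1728 bases with Gm15557 (1.25 CPM), Rbm25 2000 bases with Gm29361 (1.21 CPM), Mettl17 151 bases with Slc39a2 (2.87 CPM) and Ypel1 491 bases with Ppil2. Ppil2 stood at 93.4 CPM with a log2 fold change of -0.06, against a rise of Ypel1.

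**Figure D1:**
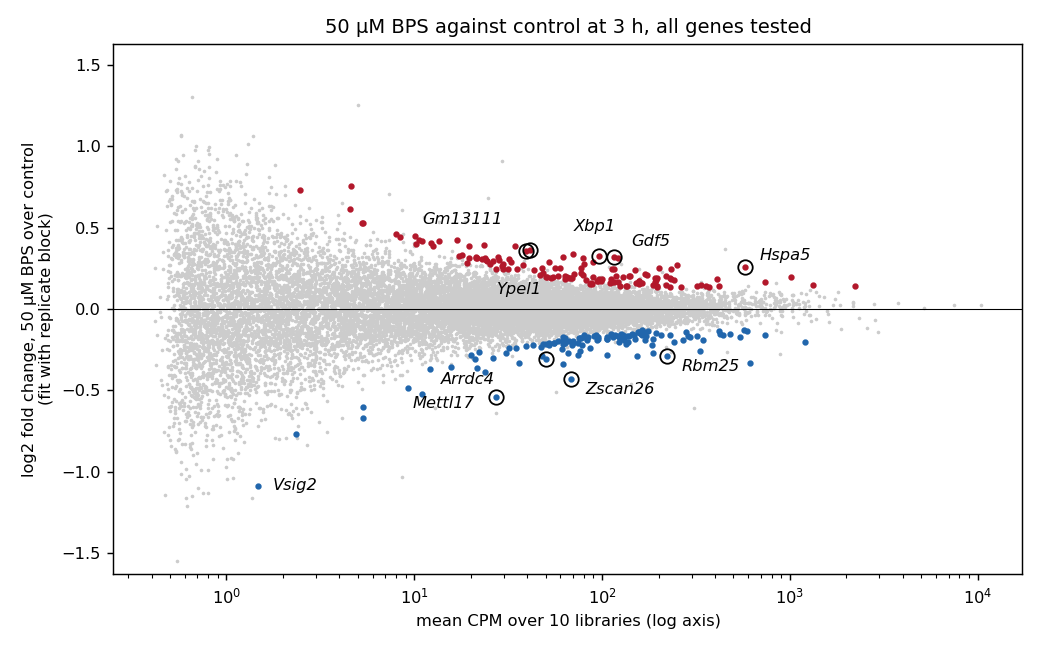
Log2 fold change of 50 µM BPS over control at 3 h from the fit with the replicate block, against mean CPM over the 10 libraries on a log axis, for the 16722 genes tested. Red and blue points are the 134 genes that rose and the 122 that fell with the block, circled points are the 9 genes that also passed without it, and grey points did not pass; most called genes lie within 0.5 of 0, and Vsig2 is the lowest at -1.09.

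Hspa5, which encodes the main ER chaperone, was at 661, 652, 572, 608 and 642 CPM in 50 µM replicates 1 to 5 and at 530, 535, 517, 513 and 525 CPM in control replicates 1 to 5. All treated libraries lay above all control libraries, with treated replicate 3 the nearest to them. Hspa5 rose from 524 ± 9.14 to 627 ± 36.8 CPM (SD, n = 5 each), a log2 fold change of 0.26 ± 0.046 (SE; edgeR adjusted p = 0.025, and 8.79e-05 with the block).
Xbp1 encodes the transcription factor of the IRE1 arm of the unfolded protein response. It was at 104, 110, 113, 106 and 102 CPM with BPS and at 81.8, 80.9, 93.1, 90.8 and 81.0 CPM in control. The groups did not overlap, and control replicates 3 and 4 were the highest of their group. The rise was 0.32 ± 0.053 on the log2 scale (edgeR adjusted p = 0.025, and 5.02e-05 with the block). These are total transcripts, so the spliced form of Xbp1 cannot be told apart from the unspliced one here.

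Of the 22 ER chaperones and folding enzymes tested, 9 rose with the block, beside 0.801% of all genes, and 0 fell. Without the block Hspa5 passed alone. The log2 fold change was above 0 in all 22, with a median of 0.15, against 0.0038 over all genes. In 15 of the 22 the treated library was higher in 5 of 5 pairs, which was the case for 6.91% of all genes. Without both pairs that contained a library lacking Y-linked reads 5 members passed with the block, and leaving out replicate 4 of both groups left 4. Hspa5, Manf, Hsp90b1 and Txndc11 passed with the block whichever pair was left out, while Sdf2l1, Pdia6 and Hyou1 each passed in 1 of 5 such fits. The summed level of the list was 4999 to 5625 CPM with BPS and 4630 to 4976 CPM in control, and treated replicate 3 was the lowest treated library, just above control replicate 1.

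Manf, a secreted factor that is retained by ER chaperones, was at 84.7, 71.8, 80.5, 78.1 and 73.6 CPM with BPS and at 52.9, 59.5, 66.3, 61.9 and 67.4 CPM in control. The groups did not overlap. The difference of 0.34 ± 0.058 with the block passed there only (edgeR adjusted p = 0.0531 without it and 0.00455 with it). The annotated span of Manf overlaps Dcaf1 and Rbm15b, whose log2 fold changes were -0.08 and -0.05, so its counts are uncertain.
Sdf2l1, a partner of BiP, was at 12.8, 11.5, 12.7, 10.9 and 10.3 CPM with BPS and at 7.47, 8.45, 8.70, 8.79 and 9.37 CPM in control. The groups did not overlap, and with the block Sdf2l1 had the largest change of the list, 0.45 ± 0.105 (edgeR adjusted p = 0.0254 with the block and 0.16 without). Hsp90b1, which encodes the ER form of HSP90, was at 499, 460, 379, 394 and 447 CPM with BPS and at 410, 376, 352, 371 and 400 CPM in control. The groups overlapped, while each treated library lay above the control of its number. Hsp90b1 rose with the block by 0.19 ± 0.037 (edgeR adjusted p = 0.0068, and 0.467 without), and without both pairs that contained a library lacking Y-linked reads it did not pass (edgeR adjusted p = 0.107).
Txndc11, a thioredoxin-domain protein of the ER, had groups that did not overlap, 63.8 to 68.3 CPM with BPS against 52.4 to 56.5 CPM in control. It rose with the block by 0.25 (edgeR adjusted p = 0.00327, and 0.0563 without). The remaining members that rose with the block were the lectin chaperone calreticulin (Calr, 0.16), the disulfide isomerases Pdia4 (0.18) and Pdia6 (0.15), and Hyou1 (0.16), which exchanges the nucleotide of BiP.
The 13 members that did not pass with the block ranged from 0.0019 to 0.19 on the log2 scale. Of the 9 that rose, 7 had a RefSeq promoter window and 4 of these held the ER stress response element, in the sequences printed above. In the whole list 7 of the 17 with a window held it. The unfolded protein response element, searched as TGACGTGG on both strands, was in Txndc11 among the 7, and in 0.676% of all windows.

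Other lists of stress genes gave few calls. Of 20 sensors and ER degradation genes Xbp1 alone passed, with or without the block, and the median of the list was 0.056. In this list 16 genes lay above 0 and 4 below, and the summed level was higher with BPS in 5 of 5 pairs. Atf4, the factor of the PERK arm, was at 254 ± 12.5 CPM with BPS and 258 ± 17.4 CPM in control, and Ddit3, which encodes CHOP, at 23.5 ± 2.65 and 24.0 ± 1.26 CPM (SD, n = 5). Neither passed (edgeR adjusted p = 0.862 and 0.881 with the block). Of 24 ATF4 and CHOP targets, Ddit4 alone passed with the block, at 0.19, beside 0.801% of all genes that rose. The median was -0.028. Ddit4 did not pass without replicate 3 of both groups, nor without both pairs that contained a library lacking Y-linked reads (edgeR adjusted p = 0.143). None of 15 ER export genes of the COPII coat and its regulators passed, and the smallest adjusted p among them with the block was 0.215. Of 20 cytosolic heat shock genes Hsf1, the heat shock transcription factor, fell with the block by 0.17, beside 0.73% of all genes. The other 19 did not pass. The call of Hsf1 was lost whichever pair was left out, in 5 of 5 fits. None of 20 NRF2 antioxidant targets and none of 21 p53 and apoptosis genes passed with the block. Their smallest edgeR adjusted p-values with the block were 0.0568 and 0.0965. However, without both pairs that contained a library lacking Y-linked reads 1 of the 21 fell, beside 107 of all 16794 genes.

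**Figure D2:**
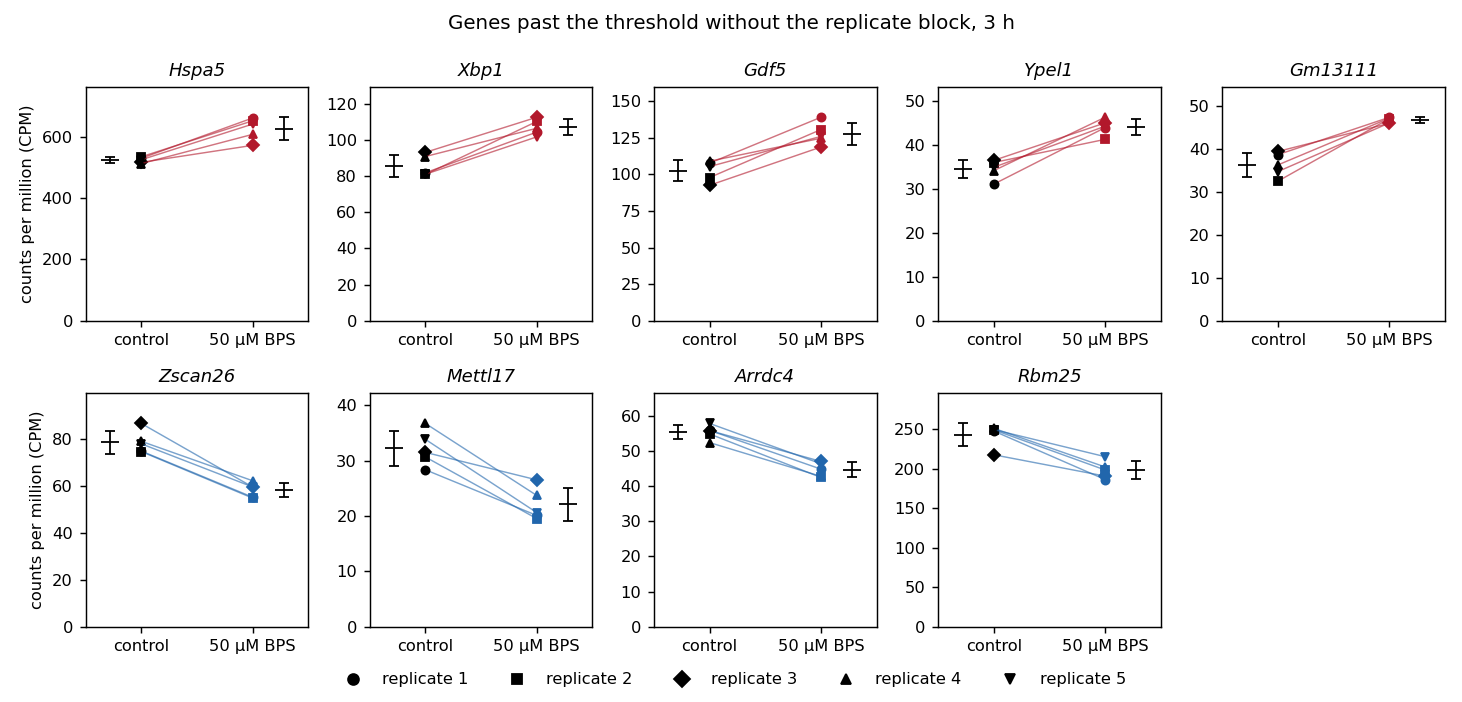
CPM of the 9 genes that passed without the replicate block, in control (black) and 50 µM BPS (coloured) libraries at 3 h, with lines joining libraries of one replicate number and the mean ± SD (n = 5) beside each group. In all 9 panels the groups do not overlap, red panels rise and blue panels fall, and Hspa5 treated replicate 3, at 572 CPM, is the closest of its group to control.

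Among 25 sterol synthesis genes and SREBP2 targets 7 rose with the block, beside 0.801% of all genes, and 0 fell. None passed without the block. The median of the list was 0.16, and the log2 fold change was above 0 in all 25. In 13 the treated library was higher in 5 of 5 pairs, against 6.91% of all genes. Without both pairs that contained a library lacking Y-linked reads 1 of the 25 passed, and 4 passed without replicate 3 of both groups.
Hmgcs1, which makes HMG-CoA early in the pathway, was at 159, 172, 142, 139 and 140 CPM with BPS and at 126, 148, 122, 126 and 132 CPM in control. Replicate 2 was the highest of both groups, and the groups overlapped. The change was 0.20 ± 0.038 with the block (edgeR adjusted p = 0.00455, and 0.408 without).
Dhcr7, which carries out a late step of cholesterol synthesis, was at 63.1, 65.7, 61.4, 60.0 and 56.2 CPM with BPS and at 48.7, 53.8, 48.8, 55.4 and 51.3 CPM in control. All treated libraries lay above all controls, with treated replicate 5 nearest to control replicate 4. Dhcr7 rose with the block by 0.25 ± 0.049 (edgeR adjusted p = 0.0069, and 0.156 without). Sqle (0.15), Cyp51 (0.20) and Acat2 (0.20), further enzymes of the pathway, also rose with the block. Hmgcs1 passed whichever pair was left out, Dhcr7, Cyp51 and Acat2 in 4 of 5 such fits and Sqle in 0, and none of these 5 passed without both pairs that contained a library lacking Y-linked reads. The SREBP retention gene Insig1 (0.17) did not pass in either fit, with an adjusted p of 0.184 with the block.
Of 15 fatty acid synthesis genes 3 rose with the block, Scd1, Scd2 and Srebf1, beside 0.801% of all genes. None of the 15 passed without the block. Leaving out replicate 4 of both groups left 1 of the 3, and 2 passed without both pairs that contained a library lacking Y-linked reads. Scd1, a stearoyl-CoA desaturase, was at 79.1, 73.5, 63.4, 69.1 and 60.0 CPM with BPS and at 54.7, 57.7, 52.6, 60.1 and 50.9 CPM in control. Treated replicate 5 was level with the highest control, and each treated library lay above the control of its number. Scd1 rose with the block by 0.32 ± 0.049 (edgeR adjusted p = 0.00055, and 0.108 without). None of the 4 sterol genes with a promoter window, of the 7 that rose, held the sterol regulatory element in its classical form, which 0.0913% of all windows held.

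Of 18 retinoid pathway genes 4 rose with the block, beside 0.801% of all genes, and 0 fell. None passed without the block. The 4 that rose were 3 enzymes that lower retinoic acid and 1 of its receptors, and the median of the list was 0.048. Without both pairs that contained a library lacking Y-linked reads 2 of 17 passed, and leaving out replicate 2, 3, 4 or 5 of both groups also left 2.
Dhrs3, which reduces retinaldehyde back to retinol, was at 88.1, 84.0, 94.2, 88.1 and 85.2 CPM with BPS and at 73.4, 60.8, 79.8, 72.5 and 68.7 CPM in control. All treated libraries lay above all controls. The difference was 0.31 ± 0.043 with the block (edgeR adjusted p = 0.000117, and 0.0563 without).
Cyp26a1, which degrades retinoic acid, was at 7.58, 5.01, 7.86, 6.15 and 4.91 CPM with BPS and at 5.15, 3.93, 5.65, 3.49 and 3.65 CPM in control. The groups overlapped and the level was low, while replicates 1 and 3 were the highest in both groups. It rose with the block by 0.53 ± 0.13 (edgeR adjusted p = 0.0378, and 0.434 without), the largest rise with the block among the genes named here, and the call was lost whichever pair was left out. Cyp26b1, the related enzyme with the higher level in these libraries, was at 234 ± 11.9 CPM with BPS and 203 ± 22.3 CPM in control and rose with the block by 0.21 (edgeR adjusted p = 0.00648). CPM values of different genes are not corrected for length. In the authors' length-corrected values (FPKM) Cyp26b1 was at 42.0 ± 2.10 with BPS and 36.6 ± 4.18 in control (SD). Cyp26a1 was at 3.42 ± 0.75 and 2.37 ± 0.53 FPKM.
Rarb, the retinoic acid receptor beta, was at 16.0, 19.2, 13.6, 14.7 and 13.8 CPM with BPS and at 14.7, 11.6, 8.40, 12.6 and 10.8 CPM in control. Control replicate 1 was as high as several treated libraries. Rarb rose with the block by 0.42 ± 0.097 (edgeR adjusted p = 0.0242, and 0.408 without), and the call was lost without replicate 2, 3 or 5 of both groups. Its annotated span overlaps Top2b on the opposite strand by 4624 bases, and Top2b, at 294 CPM, had a log2 fold change of -0.01. Rarb and Cyp26a1 were 2 of the 15 retinoid genes with a promoter window, and the 2 that held the DR5 element printed above. The 14 members that did not pass ranged from -0.29 to 0.78.

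**Figure D3:**
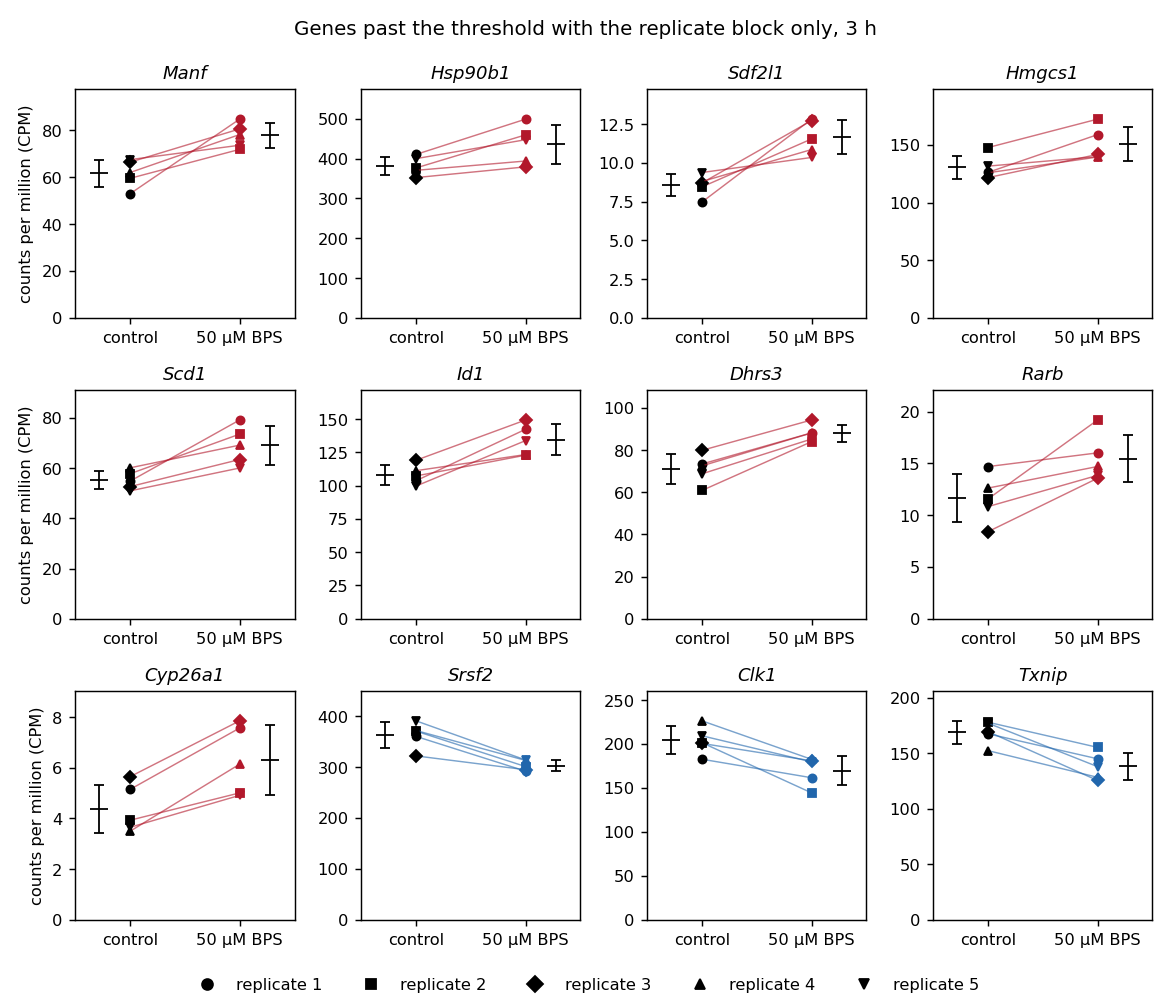
CPM of 12 genes that passed only with the replicate block, in control (black) and 50 µM BPS (coloured) libraries at 3 h, with lines joining libraries of one replicate number and the mean ± SD (n = 5) beside each group. Lines of one panel slope the same way while several groups overlap, as for Hmgcs1, Rarb and Cyp26a1.

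Of 19 BMP and TGF-beta targets 5 rose with the block, beside 0.801% of all genes, and 0 fell. None passed without the block. The median of the list was 0.12, and 3 passed without both pairs that contained a library lacking Y-linked reads and also without replicate 3 or replicate 4 of both groups. Id1 and Id3 encode inhibitors of basic helix-loop-helix factors. Id1 was at 142, 123, 149, 123 and 134 CPM with BPS and at 104, 107, 119, 111 and 99.7 CPM in control, and Id3 ranged from 243.4 to 303 CPM with BPS and from 220 to 240 CPM in control. Neither gene had overlapping groups. Id1 rose with the block by 0.31 ± 0.043 (edgeR adjusted p = 0.000117) and Id3 by 0.27 ± 0.036 (edgeR adjusted p = 8.67e-05), and both had 0.0531 without it.
The other 3 were Smad6 (0.21), an inhibitory SMAD, Msx1 (0.21), a homeobox gene of limb mesenchyme, and Skil (0.22), a repressor of SMAD signalling. Smad6 passed in 1 of the 5 fits without a pair and the other 2 in 4. Msx1 was higher in 4 of 5 pairs, as replicate 5 stood at 171 CPM in both groups. Of the 3 of these 5 genes with a promoter window Smad6 held the palindromic SMAD site GTCTAGAC, as did 0.213% of all windows.
Gdf5, a BMP family ligand that marks the joint-forming interzone, was at 139, 131, 119, 125 and 126 CPM with BPS and at 108, 97.9, 92.6, 109 and 105 CPM in control. The groups did not overlap, and replicate 3 was the lowest of both. The rise was 0.32 ± 0.055 (edgeR adjusted p = 0.025, and 5.02e-05 with the block). It was the only one of 23 BMP ligands, receptors and inhibitors, and the only one of 17 joint interzone genes, to pass in either fit. Bmp2 was at 43.1 ± 3.85 CPM with BPS and 43.6 ± 3.71 CPM in control.

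Skeletal differentiation genes gave no calls over the 10 libraries. None of 25 cartilage genes passed with or without the block, and their median was -0.051, with 21 below 0 and 4 above. Sox9, the chondrocyte master regulator, was at 470 ± 27.3 CPM with BPS and 475 ± 24.2 CPM in control. Col2a1, the cartilage collagen, was at 2465 ± 137 and 2670 ± 171 CPM, Acan, the large cartilage proteoglycan, at 145 ± 10.6 and 158 ± 18.9 CPM, and neither passed (edgeR adjusted p = 0.225 and 0.479 with the block). Without both pairs that contained a library lacking Y-linked reads 3 of the 25 cartilage genes fell with the block. Over all genes 107 of 16794 fell in that fit. None of 15 hypertrophic and none of 14 osteoblast genes passed. Without both pairs that contained a library lacking Y-linked reads 1 of the 14 fell. Of the 14, 11 lay below 0 and 3 above, and of the 15, 10 below and 5 above. The hypertrophic genes summed to 1029 to 1109 CPM with BPS and 1097 to 1128 CPM in control, higher with BPS in 0 of 5 pairs. Col10a1, the hypertrophic collagen, was near 5 CPM in both groups, at 4.81 ± 1.09 and 4.86 ± 1.01 CPM. Runx2, the osteoblast factor, was at 37.0 ± 2.79 and 39.6 ± 2.73 CPM, and Sp7, which acts after it, at 12.0 ± 1.37 and 12.6 ± 0.58 CPM.
In the hedgehog list Gli1 and Hhip, both direct targets of the pathway, fell with the block, 2 of 15 genes beside 0.73% of all genes. Gli1 was at 67.4, 73.5, 82.5, 94.2 and 80.9 CPM with BPS and at 80.1, 90.2, 101, 109 and 89.7 CPM in control. Each treated library lay below the control of its number, while the groups overlapped. Gli1 fell with the block by 0.24 ± 0.041 (edgeR adjusted p = 0.00208, and 0.541 without). Hhip fell with the block by 0.27, lower in 4 of 5 pairs. Leaving out replicate 1, 3, 4 or 5 of both groups left 1 of the 2. The ligand Ihh was at 24.9 ± 1.72 and 23.5 ± 2.57 CPM and the receptor Ptch1 at 132 ± 12.9 and 141 ± 10.7 CPM, and neither passed.
In other lists single members passed with the block, and each of these calls was lost when 1 or more of the pairs were left out singly: the Wnt inhibitor Dkk3 rose by 0.21 (1 of 19), the FGF target Etv5 fell by 0.25 (1 of 16), Bub1, a spindle checkpoint kinase, fell by 0.21 (1 of 30 cell cycle genes), and Hoxd12 rose by 0.17 beside Msx1 (2 of 30 limb patterning factors). Of all genes 0.801% rose and 0.73% fell with the block. Of the 5 fits without a pair Dkk3 and Bub1 passed in 1, Hoxd12 in 2 and Etv5 in 4. Without both pairs that contained a library lacking Y-linked reads Dkk3 and Hoxd12 did not pass (edgeR adjusted p = 0.374 and 0.212).

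Among the gene lists examined, that of SR and SR-like splicing factors held the most falls with the block, 11 of the 122 over all genes. These 11 were of 33 tested, beside 0.73% of all genes, and 0 rose. Rbm25 alone passed without the block. The median of the list was -0.057, and 14 members were lower in 5 of 5 pairs, against 6.26% of all genes. Without both pairs that contained a library lacking Y-linked reads 8 fell and 1 rose, beside 107 and 86 of all 16794 genes. The count of falls was 5 without replicate 2 or replicate 5 of both groups and 6 without replicate 4.
Rbm25, a splicing regulator that binds the U1 particle, was at 186, 199, 191, 202 and 215 CPM with BPS and at 248, 249, 218, 251 and 250 CPM in control. The control libraries lay close together except replicate 3, which was nearest to the treated ones without overlapping them. Rbm25 fell by 0.29 on the log2 scale (SE 0.052; edgeR adjusted p = 0.025, and 5.02e-05 with the block).
Srsf2, an SR protein that binds exonic enhancers, was at 292, 301, 295, 313 and 314 CPM with BPS and at 360, 371, 322, 372 and 391 CPM in control. The groups did not overlap, and control replicate 3 was again the lowest control. It fell with the block by 0.26 ± 0.036 (edgeR adjusted p = 0.00011, and 0.0531 without).
Clk1, a kinase that phosphorylates SR proteins, was at 162, 144, 181, 182 and 180 CPM with BPS and at 183, 202, 201, 226 and 209 CPM in control. Control replicate 1 lay just above the highest treated library. Clk1 fell with the block by 0.27 ± 0.041 (edgeR adjusted p = 0.00055, and 0.238 without). The other falls were Srsf3 (-0.13), Srsf11 (-0.17), Srrm1 (-0.19), Srrm2 (-0.16), Rbm39 (-0.15), Rbm5 (-0.17), Luc7l (-0.19) and Clk2 (-0.17). Of the 11 falls, Rbm25, Srsf2, Clk1, Srrm1 and Luc7l passed whichever pair was left out, and Srrm2 passed in 0 of those 5 fits. The 22 members that did not pass ranged from -0.16 to 0.11.
Of 20 hnRNP genes, whose products package nascent RNA, Hnrnpl (-0.17) and Hnrnpdl (-0.16) fell with the block, beside 0.73% of all genes. The other 18 did not pass. The list as a whole lay the other way: 17 of the 20 were above 0, the median was 0.041, and the summed level was 12010 to 13260 CPM with BPS and 11840 to 12810 CPM in control, higher in 5 of 5 pairs. Neither fall passed without both pairs that contained a library lacking Y-linked reads, and Hnrnpdl passed in 2 of the 5 fits without a pair. For several SR genes, transcripts with retained introns or poison exons are known, and gene counts do not separate them from coding transcripts.

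**Figure D4:**
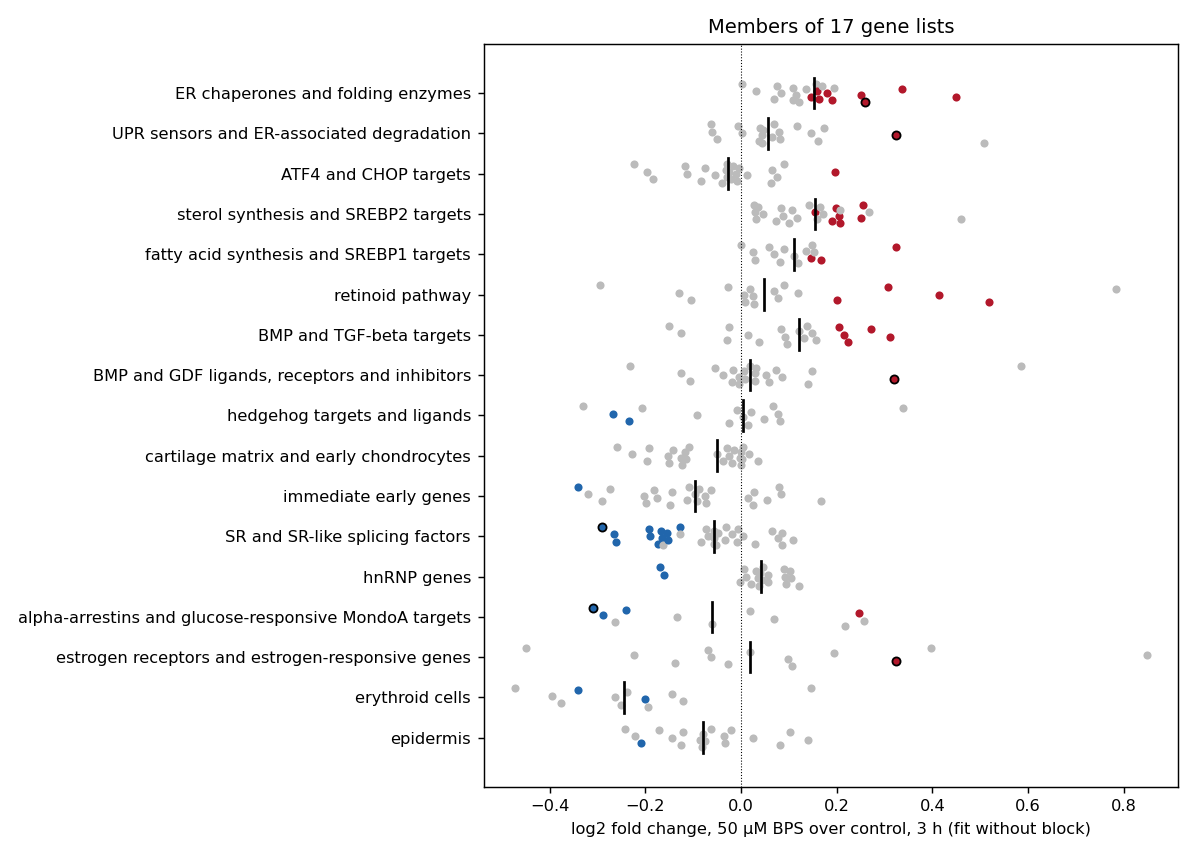
Log2 fold change of 50 µM BPS over control at 3 h, from the fit without the block, for the tested members of 17 gene and cell type lists. Red and blue points rose and fell with the replicate block, outlined points also passed without it, grey points did not pass, and the vertical bar is the median of the list, which is 0.15 for ER chaperones and -0.057 for splicing factors.

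Zscan26, a SCAN-domain zinc finger gene, had the smallest p-value. It was at 55.3, 54.9, 59.6, 62.3 and 59.6 CPM with BPS and at 74.9, 74.7, 86.7, 79.1 and 78.0 CPM in control. The groups lay well apart. It fell by 0.43 on the log2 scale (SE 0.056; edgeR adjusted p = 0.00221, and 3.59e-06 with the block), and it passed without each of the 10 libraries in turn, in 10 of 10 fits. The other 8 genes passed in 2 to 4 of those 10 fits, and all 9 passed with the block whichever pair was left out. Among 21 SCAN genes Zkscan3 also fell with the block, by 0.16, so 2 of the 21 fell, beside 0.73% of all genes. Zkscan3 passed in 1 of the 5 fits without a pair.
Mettl17, which takes part in assembly of the mitochondrial ribosome, was at 20.1, 19.5, 26.5, 23.7 and 20.6 CPM with BPS and at 28.4, 30.7, 31.5, 36.7 and 33.9 CPM in control. Treated replicate 3 was the highest treated library, close below control replicate 1. The fall was 0.54 on the log2 scale (SE 0.090; edgeR adjusted p = 0.025, and 7.68e-05 with the block). The other 31 genes of the mitochondrial ribosome and its assembly did not pass, with values from -0.12 to 0.16. Of 12 mitochondrially encoded genes mt-Nd6 fell with the block, by 0.14, beside 0.73% of all genes. It passed in 1 of the 5 fits without a pair.
Arrdc4, an alpha-arrestin induced by glucose through MondoA, was at 44.8, 42.5, 47.0, 42.8 and 46.4 CPM with BPS and at 55.9, 54.8, 55.8, 52.4 and 57.8 CPM in control. The groups did not overlap. It fell by 0.31 on the log2 scale (SE 0.054; edgeR adjusted p = 0.025, and 0.000609 with the block).
Txnip, the related thioredoxin-binding gene with the same regulator, was at 145, 155, 126, 128 and 138 CPM with BPS and at 168, 178, 170, 152 and 177 CPM in control. Control replicate 4 was as low as the highest treated library. Txnip fell with the block by 0.29 ± 0.039 (edgeR adjusted p = 8.79e-05, and 0.0712 without). Klf10 fell with the block by 0.24, a call lost without replicate 1, 3, 4 or 5 of both groups, and Arrdc3 rose by 0.25. Of 11 genes in this list 3 thus fell and 1 rose, beside 0.73% and 0.801% of all genes. Of the 2 fallen genes with a promoter window Txnip held the carbohydrate response element printed above.
Ypel1, a gene of the yippee-like family, was at 44.0, 41.4, 45.1, 46.4 and 44.4 CPM with BPS and at 31.1, 36.1, 36.5, 34.2 and 34.98 CPM in control. Gm13111, a gene model annotated as an antisense RNA on chromosome 4, was at 47.3, 47.0, 45.9, 47.1 and 46.0 CPM with BPS and at 38.6, 32.4, 39.3, 36.2 and 34.7 CPM in control. Neither had overlapping groups, and both rose by 0.36 (edgeR adjusted p = 0.025 each, and 0.000772 and 0.00055 with the block). Whether the counts use strand is unknown, and reads from the opposite strand at Gm13111 cannot be separated from its own.

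Beyond these lists, and with gene models left out, the largest changes with the block were at low levels. Vsig2, a membrane protein of the immunoglobulin family, was at 0.798, 0.658, 1.08, 0.654 and 1.55 CPM with BPS and at 1.67, 2.05, 1.85, 1.36 and 3.15 CPM in control. Replicate 5 was the highest of both groups, and the groups overlapped. Vsig2 fell with the block by 1.09 ± 0.26 (edgeR adjusted p = 0.0281, and 0.267 without), and the call was lost whichever pair was left out. Other falls among the 10 largest besides Mettl17 and Zscan26 were Irx4 (-0.67), an Iroquois homeobox gene, C3ar1 (-0.60), a complement receptor, Smpd3 (-0.48), a sphingomyelinase needed for skeletal growth, Fndc1 (-0.39), the epidermal integrin Itgb4 (-0.37), Stc2 (-0.36), a secreted stanniocalcin, and the pseudogene Pisd-ps1 (-0.35). Of these, Stc2 passed whichever pair was left out and Itgb4 passed in 0 of those 5 fits.
Rises among the 10 largest included, besides Cyp26a1, Sdf2l1 and Rarb, Acyp1 (0.46), Nudt18 (0.42), Cfap300 (0.41), Mttp (0.40), Rpa3 (0.39) and Mettl27 (0.39). All of these stood under 30 CPM on average, and these 9 genes had edgeR adjusted p-values of 0.122 to 0.434 without the block. Mettl27 passed with the block whichever pair was left out, and Acyp1 and Mttp passed in 0 of those 5 fits. Counts of Pisd-ps1 are uncertain because near-identical copies exist in the genome, and Mttp and Smpd3 share part of their span with Trmt10a and Prmt7.

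Early response and receptor genes were examined because bisphenols are studied as hormone mimics. Of 25 immediate early genes Egr1 fell with the block, beside 0.73% of all genes, and the list median was -0.097. Without both pairs that contained a library lacking Y-linked reads 3 of the 25 fell, beside 107 of all 16794 genes. Egr1 was at 49.1, 53.7, 53.5, 58.5 and 57.5 CPM with BPS and at 59.7, 65.9, 62.8, 86.6 and 70.7 CPM in control. Control replicate 4 was the highest, and the groups did not overlap. Egr1 fell with the block by 0.34 ± 0.050 (edgeR adjusted p = 0.000313, and 0.256 without). Fos was at 17.6 ± 3.04 CPM with BPS and 17.3 ± 1.42 CPM in control.
The estrogen receptor genes were low: Esr1 at 1.36 ± 0.41 and 1.60 ± 0.19 CPM, Esr2 at 0.877 ± 0.28 and 0.485 ± 0.27 CPM, and the membrane receptor gene Gper1 at 2.36 ± 0.39 and 3.23 ± 0.79 CPM (BPS and control). None of the 3 passed with the block, with adjusted p-values of 0.718, 0.288 and 0.257. Of 13 estrogen receptor and estrogen-responsive genes Xbp1 alone passed. Cyp1a1, the main target of the aryl hydrocarbon receptor, was at 9.68 ± 5.68 and 11.4 ± 9.29 CPM and did not pass, and replicate 5 was the highest of both groups. None of 7 genes of that pathway passed, and none of 28 hypoxia and glycolysis genes. However, without both pairs that contained a library lacking Y-linked reads 7 of those 28 fell, beside 107 of all 16794 genes.

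Markers of other cell types were summed in each library. Erythroid genes summed to 1897 to 2399 CPM with BPS and 2376 to 2846 CPM in control, and the sum was lower with BPS in 5 of 5 pairs. With the block Hba-a1 fell by 0.33 and Hbb-y by 0.20, 2 of 12 erythroid genes tested, beside 0.73% of all genes. Without both pairs that contained a library lacking Y-linked reads 3 of these genes fell, beside 107 of all 16794 genes. The median of the list was -0.24. The near-identical Hba-a2 stood at 0.15, and reads of the 2 copies cannot be told apart with certainty. Macrophage genes summed to 113.7 to 126.1 CPM with BPS and 119.6 to 135.2 CPM in control, lower in 5 of 5 pairs, and 0 of 16 passed.
Epidermal genes summed to 470 to 852 CPM with BPS and 509 to 889 CPM in control, and replicate 4 was the lowest of both groups. Krt14 fell with the block by 0.22, alone of 19 epidermal genes, beside 0.73% of all genes. It did not pass without both pairs that contained a library lacking Y-linked reads (edgeR adjusted p = 0.158). None of the endothelial, muscle, Schwann cell or neuronal markers passed with the block. However, without both pairs that contained a library lacking Y-linked reads 1 of 20 muscle genes rose, beside 86 of all 16794 genes. In these bulk samples fewer cells of a type and less RNA per cell cannot be told apart, and the part of these shifts in the changes above was not tested.

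The same genes at the lower dose and the later times were read from separate fits without the block. At 3 h 0 of 16654 genes passed between 10 µM BPS and control, with 329 at an unadjusted p under 0.05, and 0 of 16702 between 50 and 10 µM, with 737 (edgeR; DESeq2 called 8). The 10 µM comparison shares its control libraries with the 50 µM one. At 10 µM the log2 fold changes were 0.08 ± 0.05 for Hspa5, 0.10 ± 0.06 for Xbp1, 0.01 ± 0.06 for Gdf5, -0.01 ± 0.05 for Arrdc4 and -0.15 ± 0.06 for Zscan26 (SE). Between 50 and 10 µM they were 0.18, 0.22, 0.31, -0.30 and -0.29, and the smallest edgeR adjusted p among these 5 was 0.0539, for Gdf5. The median of the ER chaperone list was 0.043 at 10 µM over control and 0.12 at 50 over 10 µM.

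At 24 h 62 of 16512 genes passed between 50 µM BPS and control (0.375%), and at 48 h 167 of 16663 (1%). Mettl17 passed at all 3 times, with -0.60 at 24 h (edgeR adjusted p = 0.00017) and -0.59 at 48 h (edgeR adjusted p = 0.000672). Zscan26 was at -0.30 at 24 h (edgeR adjusted p = 0.0258) and at -0.21 at 48 h, where it did not pass. Gdf5 (0.33 and 0.37) and Arrdc4 (-0.40 and -0.34) kept their size and did not pass at either later time.
Hspa5 was at 0.08 at both later times and Xbp1 at 0.01 and 0.06, and neither passed there. The change of the response itself, tested as an interaction over 30 libraries, was -0.18 and -0.17 for Hspa5 (edgeR adjusted p = 0.719 and 0.551) and -0.32 and -0.26 for Xbp1 (edgeR adjusted p = 0.62 and 0.278). A difference between the times was thus not established for either gene. Lipid genes stood higher at the later times: Scd1 at 0.61 and 0.92, Hmgcs1 at 0.36 and 0.59 and Dhcr7 at 0.38 and 0.61, all passing at both. Of the sterol list 6 of 25 rose at 24 h and 20 of 25 at 48 h, with medians of 0.21 and 0.44. The interaction of 48 h against 3 h did not pass for Scd1 (0.60, edgeR adjusted p = 0.0766), Hmgcs1 (0.39, 0.251) or Dhcr7 (0.36, 0.219).
Over all genes the interaction passed for 0 of 18071 at 24 h (1133 at an unadjusted p under 0.05) and for 7 at 48 h, 0.0387%, 1 of which was the sterol gene Lss. No splicing factor passed at 24 or 48 h in these fits without the block, and the list medians were -0.027 and 0.0030. In the fit of this kind at 3 h Rbm25 alone passed, and the list median was -0.057.

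**Figure D5:**
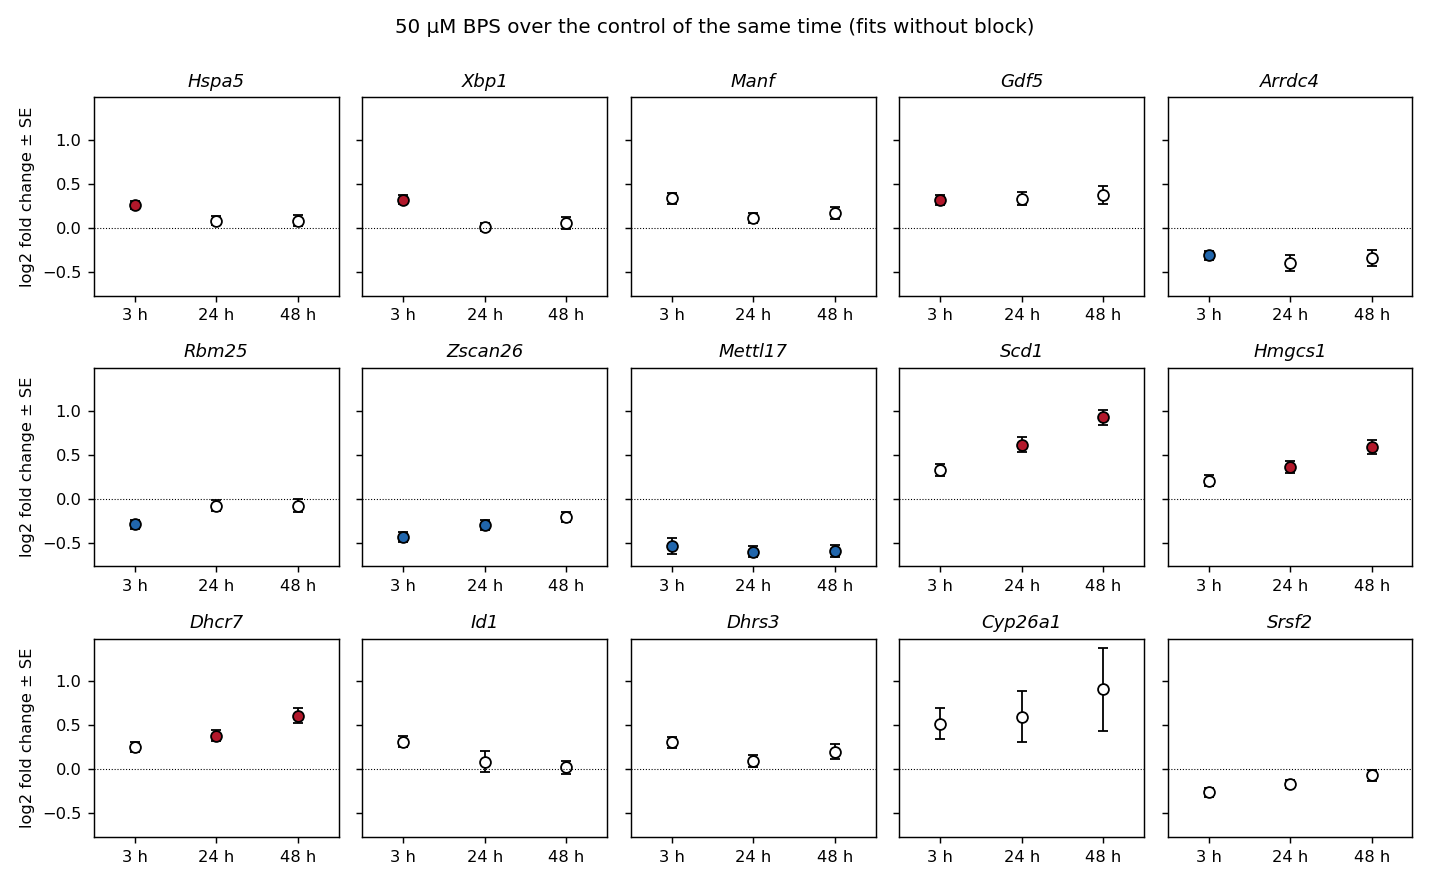
Log2 fold change ± SE of 50 µM BPS over the control of the same time at 3, 24 and 48 h, from separate fits without the block, for 15 genes. Filled points passed and open points did not; Mettl17 stays near -0.6 at all times, and Scd1, Hmgcs1 and Dhcr7 are higher at 24 and 48 h than at 3 h.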

How the data were processed

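Per the submitters' processing notes CASAVA 1.8, STAR 2.5, HTSeq 0.6.1 and DESeq2 (listed as version 2) were used on build mm10; no label or header gives their options or the annotation release. Per the file headers the deposited tables hold raw counts of reads for each gene in each library, which were the input of every test, and FPKM values, which the authors computed and which were not tested. The log2 fold changes and p-values deposited by the authors were used only to count genes: the authors' deposited table has 41 genes at an adjusted p below 0.05, of which 9 passed here without the block and 40 with it.

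The tables were joined by gene identifier (34244 genes), and a gene that a table does not list was set to 0 in its libraries. The 16722 genes that passed the filter on low counts, all among the 30680 of the table of this comparison, were tested with edgeR 4.0.16 (R 4.3.3; two-sided quasi-likelihood F-test, TMM scaling, filterByExpr, robust dispersion, Benjamini-Hochberg adjustment, threshold 0.05), on the 10 libraries of the comparison. CPM values use TMM factors. The SE was taken from the fold change and its F statistic. The scripts were tested on simulated data. The replicate numbers come from the sample titles. Same-numbered pairs of the 2 groups correlated at 0.114 to 0.243, all 5 above 0.1, so results are given with the block too. Replicates were distinct, as chi-square divided by its degrees of freedom ran from 4.18 to 14.2 over the pairs within a group.

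The comparison, the 34 gene lists and the 10 cell type lists were chosen with earlier results of these data known. Named genes are those passing without the block, the 10 largest rises and 10 largest falls with it (mean of at least 1 CPM, no gene model names), up to 4 members of a list by p, and a set panel. Other list members that passed with the block, and genes named only in the closing section, were chosen after their values were seen. Values of some genes that the rule names are not reported here, although list counts include them. Alternatives were DESeq2 1.42.0, limma-voom (limma 3.58.1), other scalings and filters, the Y-linked level as a covariate, and fits without single libraries or pairs.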

Additional observations from a re-analysis of the deposited data

Results flagged for a closer look

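Among 109 genes examined in both groups (218 groups of 5 libraries), 9 groups held 1 library far from the other 4. Chance gives this in about 1 of 20 groups, so 9 of 218 is no more than chance alone gives. The values below are therefore flags only and do not establish an outlying library. Rbm25 was at 217.8 CPM in control replicate 3, below 247.9 to 251.3 CPM in the other 4 controls. The same library was also apart for Mettl27 (20.1 CPM, against 15.5 to 16.6), Acyp1 (8.70 CPM, against 5.88 to 6.51) and Mttp (6.20 CPM, against 9.37 to 9.59). Irx4 was at 5.04 CPM in control replicate 4, below 6.74 to 7.05 CPM in the other controls, and Luc7l at 162.1 CPM in control replicate 1, below 181.9 to 189.4 CPM. Esr1 was at 1.94 CPM in control replicate 2, above 1.46 to 1.55 CPM. In the 50 µM group Klf10 was at 27.0 CPM in replicate 3, below 32.8 to 33.96 CPM, and Esr2 at 1.37 CPM in replicate 2, above 0.711 to 0.828 CPM.

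The 50 µM response differed between 48 h and 3 h for 7 genes by the interaction test of edgeR. The difference in log2 fold change (48 h minus 3 h) was 0.44 for Cpm, 0.51 for Gdf10, 0.78 for Cth, 0.65 for Lss, 0.51 for Slc7a1 and 0.47 for Fgfr3, and -1.18 for Mmrn1. Their adjusted p-values ran from 0.00525 (Lss) to 0.0446 (Mmrn1). At 3 h these 7 genes lay between -0.16 (Slc7a1) and 0.20 (Cpm), and none passed without the block, while Cpm and Slc7a1 passed with it (adjusted p = 0.0293 and 0.0498).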

How the results depend on the processing

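With the replicate number as a block the count of genes passing at 3 h went from 9 to 256. It was 41 with DESeq2, 59 without a filter on low counts, 23 with the Y-linked level as a covariate, 19 when all 15 libraries of 3 h shared the spread, 2 without both libraries lacking Y-linked reads, and 1 to 18 without single libraries. It was 1 without 50 µM replicate 1 or 4 or control replicate 2 or 5, 2 without control replicate 4, 4 without 50 µM replicate 5 or control replicate 1, 6 without 50 µM replicate 3, 16 without control replicate 3 and 18 without 50 µM replicate 2. It stayed within 9 to 11 with limma-voom, other scalings and a filter of 1 CPM. With the block the count of 256 became 158 with DESeq2, 397 without the filter, 401 with the Y-linked covariate and 91 to 207 without single pairs (111, 91 and 114 without replicate 3, 4 or 5). Named genes that did not pass with DESeq2 and the block included Hyou1, Sqle, Smad6, Hhip, Klf10, Clk2, Dkk3, Bub1 and Hsf1. The DESeq2 adjusted p-values of these genes ran from 0.0519 to 0.106. DESeq2 with the block gave no adjusted p for others, among them Sdf2l1, Rarb, Cyp26a1, Vsig2 and Mettl27. Between 50 and 10 µM the count of 0 became 8 with DESeq2, 13 without the filter and 0 to 2 without single libraries. It stayed 0 with the block, whose numbers pair those libraries less clearly (4 of 5 correlations above 0.1). For the 48 h interaction 7 became 58 with the block, 19 without the filter and 3 to 12 without single libraries, and the 24 h one stayed 0 in all fits run. At 24 h 3 of 5 same-numbered correlations lay above 0.1 (0.0791 to 0.246), and at 48 h 2 of 5 (-0.0673 to 0.122). Both times fell short of the 5 of 5 at 3 h, and the block gave 949 and 70 genes. The median of the ER chaperone list stayed between 0.12 and 0.17. Signs of the 91 named genes that passed in either fit were followed over the fits without the block and the main block fit. None of these genes changed sign there. The other fits with the block were not compared for sign. Signs changed for panel genes near 0: without both libraries lacking Y-linked reads Ihh was -0.0029, Bmp2 0.060 and Fos -0.028, with limma-voom Fos was -0.0041, and without single libraries the values ran from -0.057 to 0.013 for Atf4, -0.62 to 0.38 for Cyp1a1, -0.075 to 0.020 for Ddit3, -0.039 to 0.011 for Sox9, -0.062 to 0.023 for Bmp2, -0.075 to 0.066 for Fos and -0.16 to 0.11 for Col10a1. The covariate with the block and the fits without the libraries lacking Y-linked reads were chosen after seeing the data. The causes were not tested. Having 5 libraries a group limits the precision of changes this small, and genes near 1 CPM, such as Esr1 and Esr2, rest on few reads.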

Other observations

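Of the 256 genes that passed with the block 192 were on no list, and among them were further genes of the secretory route and of splicing, picked here after their values were seen. With the block Spcs2 (signal peptidase, 0.20), Ssr3 (translocon, 0.13), Serp1 (translocon stability, 0.14), Magt1 (oligosaccharyltransferase and magnesium transport, 0.24), Alg2 (N-glycan assembly, 0.17), Tmed9 (cargo transport from the ER, 0.22) and Selenok (ER selenoprotein, 0.19) rose, and none passed without it. Srek1 (-0.18), the SR protein kinase Srpk1 (-0.21), Prpf39 (-0.17) and Prpf3 (-0.21), which belong to splicing particles, fell with the block and did not pass without it. All 11 moved the same way in 5 of 5 pairs, as did 246 of the 256, which follows largely from the selection. Only Magt1, Srek1 and Srpk1 passed whichever pair was left out, and Serp1 and Ssr3 passed in 0 of those 5 fits. Because these genes were picked for having passed, their number is no measure of either process.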
